A study of Mus musculus with 24 samples.

Results

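The genes described here encode metabotropic glutamate (mGlu) receptors: Grm5, Grm2, Grm3, Grm4, Grm7 and Grm8. They are 6 of the 55385 genes in the count table, chosen by name and found by matching gene identifiers to these symbols in the GRCm38 annotation, and all 6 passed the filter on low counts in every comparison. Other genes of the family were not analysed here. RNA-Seq was run on the hippocampus (HIP) and entorhinal cortex (EC) of 6 male Ts65Dn mice and 6 male wild-type (wt) littermates, aged 5 to 6 months and kept on an F1 B6C3B background, which gave 24 libraries, with both regions taken from each of the 12 mice. Ts65Dn mice, a model of Down syndrome, carry a freely segregating minichromosome on which a segment of mouse chromosome 16 (Mmu16), homologous to human chromosome 21, is fused with the part of chromosome 17 (Mmu17) nearest its centromere, which has no such homology. None of the 6 receptor genes lies in these triplicated segments: Grm4 is on Mmu17 but far beyond Pde10a, the last triplicated gene of that chromosome.

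Metabotropic glutamate receptors are G protein-coupled receptors that answer glutamate more slowly than the ion channel receptors do. Group I receptors (Grm5 here) couple to Gq and phospholipase C, sit mostly around the postsynaptic density and drive a form of long-term depression. Group II (Grm2 and Grm3) and group III (Grm4, Grm7 and Grm8) receptors couple to Gi/o, lower cyclic AMP and mostly restrain transmitter release from presynaptic terminals, and group II receptors also sit on glia and outside the active zone. In the hippocampal formation, the entorhinal cortex sends its output to the dentate gyrus and CA fields through the perforant path, whose terminals carry group II and group III receptors.

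On GRCm38, Grm5 (ENSMUSG00000049583) occupies chr7:87584168-88134907 on the plus strand and Grm2 (ENSMUSG00000023192) chr9:106643095-106656082 on the minus strand. Grm3 (ENSMUSG00000003974) lies at chr5:9485541-9725170 and Grm4 (ENSMUSG00000063239) at chr17:27422387-27521403, both on the minus strand. Grm7 (ENSMUSG00000056755) lies at chr6:110645581-111567230 on the plus strand and Grm8 (ENSMUSG00000024211) at chr6:27275119-28135178 on the minus strand. The spans range from 13.0 kb for Grm2 to 922 kb for Grm7, while the summed exons range only from 3049 bases for Grm3 to 10247 bases for Grm5. Exons of 2 receptor genes overlap a gene on the opposite strand: 470 bases of Grm2 with Gm28111, which drew 42 counts over the 24 libraries against 34001 for Grm2, and 130 bases of Grm7 with Gm20387, which drew 757 against 45305. The strand setting used for counting is not given in the sources used here, so reads of these antisense pairs cannot be told apart.

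Promoter windows from RefSeq (GRCm38.p6, 250 bases before to 50 bases after a start site) were found for 4 of the 6 genes: Grm2, Grm3, Grm7 and Grm8. The table holds 1 window each for Grm2 and Grm3, 2 for Grm7 and 3 for Grm8, and the one whose start site lay nearest the annotated 5′ end of the gene was used. Those of Grm3, Grm7 and Grm8 are shown because these genes had HIP levels below all EC levels in both genotypes. They are at chr5:9725303-9725602 (minus strand), chr6:110645348-110645647 (plus strand) and chr6:28135097-28135396 (minus strand), written 5′ to 3′ on the strand of the gene, and capitals mark GC boxes, the letters GGGCGG searched on both strands.
Grm3: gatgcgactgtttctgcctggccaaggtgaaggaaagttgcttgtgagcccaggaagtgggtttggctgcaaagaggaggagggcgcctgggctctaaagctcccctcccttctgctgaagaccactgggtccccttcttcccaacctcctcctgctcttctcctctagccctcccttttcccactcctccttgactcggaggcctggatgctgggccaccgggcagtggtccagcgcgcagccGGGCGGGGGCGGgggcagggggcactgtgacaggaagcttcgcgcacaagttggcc
Grm7: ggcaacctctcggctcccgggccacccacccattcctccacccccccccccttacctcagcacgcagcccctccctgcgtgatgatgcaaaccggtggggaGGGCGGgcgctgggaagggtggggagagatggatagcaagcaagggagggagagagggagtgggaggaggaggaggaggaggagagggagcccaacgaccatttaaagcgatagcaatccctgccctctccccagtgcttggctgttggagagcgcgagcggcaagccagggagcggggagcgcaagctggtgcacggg
Grm8: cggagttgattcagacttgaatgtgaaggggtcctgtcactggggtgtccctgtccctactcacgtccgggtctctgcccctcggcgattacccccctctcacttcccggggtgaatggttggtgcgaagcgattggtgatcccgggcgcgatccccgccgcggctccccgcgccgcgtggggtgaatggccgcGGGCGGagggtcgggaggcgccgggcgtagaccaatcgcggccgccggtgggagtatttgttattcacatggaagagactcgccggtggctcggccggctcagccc
The Grm3 window held 2 GC boxes, which adjoin each other, and the Grm7 and Grm8 windows held 1 each. The Grm2 window, at chr9:106656060-106656359 on the minus strand, held 4. A GC box was found in 35.7% of all 32851 windows in the table. None of the 4 windows held the cyclic AMP response element TGACGTCA, present in 1.79% of all windows, or the TATA box TATAAA, present in 13.6%. The Grm8 window had 33 CpG dinucleotides, a number exceeded by 7.73% of windows, against 22 for Grm2, 15 for Grm7, 11 for Grm3 and a median of 7 over all windows. These matches describe the letters in the windows and no binding was measured.

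The libraries held between 23128589 and 40476492 counts on genes. The labelled regions were checked with marker genes, as summed CPM, counts scaled to the size of each library with TMM factors over the 24 libraries. The 5 dentate granule cell markers summed to 299 to 514 CPM in the HIP libraries and 14.4 to 18.2 CPM in the EC libraries, and the 6 cortical layer markers to 141 to 242 and 534 to 766 CPM. All genes of both lists had counts in each group. Of the cortical markers, Fezf2 did not separate the regions (HIP and EC medians 22.5 and 22.7 CPM in wt, 28.5 and 23.5 CPM in Ts65Dn mice). The 4 CA pyramidal cell markers overlapped, with sums of 336 to 464 CPM in the HIP and 248 to 353 CPM in the EC. Of these only Wfs1 had the higher median in the EC (wt 171 and 209 CPM). The label Ts65Dn was checked with the protein-coding genes of the triplicated Mmu16 segment, 73 in the HIP and 69 in EC libraries. Their median level, relative to the wt mean, was 1.46 to 1.53 in 10 of the 12 Ts65Dn libraries and 0.982 to 1.02 in the wt libraries. It was 1.01 in both the HIP and the EC library labelled Ts65Dn replicate 3, so values without that mouse are given for the receptor genes and for the partner genes named between genotypes.

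Per kilobase of exon (RPKM, CPM divided by summed exon length), Grm5 had the highest level of the 6 genes in every group. Its median was 37.6 RPKM in the wt HIP, 33.9 in the Ts65Dn HIP, 31.5 in the wt EC and 30.6 in the Ts65Dn EC. Grm3 came next, with median levels of 19.1 and 20.4 RPKM in the wt and Ts65Dn HIP and 26.5 and 24.4 RPKM in the EC. Grm5 was above Grm3 in all 12 HIP libraries with no overlap, whereas in the EC their ranges overlapped and Grm5 was the higher in 6 of 6 wt and 5 of 6 Ts65Dn libraries. The exception was the library labelled Ts65Dn replicate 3, with 23.2 RPKM of Grm5 and 28.1 RPKM of Grm3.

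Grm7 and Grm2 followed at roughly equal levels, with wt HIP median levels of 9.74 and 9.57 RPKM, and their ranges overlapped in both HIP groups and in the Ts65Dn EC. In the wt EC the Grm7 median of 12.3 RPKM was 1.25 times that of Grm2, with no overlap. Grm4, with medians of 2.11 RPKM in the wt HIP and 2.95 RPKM in the wt EC, and Grm8, with 0.843 and 1.91 RPKM, were the lowest in every library, and Grm8 was below Grm4 in all 24. Group by group, Grm5 made up 46.9% ± 2.36 (SD, n = 6) of the summed RPKM of the 6 genes in the wt HIP and 37.5% ± 1.42 (SD, n = 6) in the wt EC. The group II genes made up 37.1% ± 2.06 and 42.5% ± 1.83, and the group III genes 15.9% ± 0.617 and 20.0% ± 0.829. Over the 6 wt mice, the ranges of the Grm5 share and of the group III share did not overlap between the regions, while those of the group II share met, with a highest HIP value of 39.8% and a lowest EC value of 39.6%. These shares are of transcripts, since protein was not measured.

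**Figure D1:**
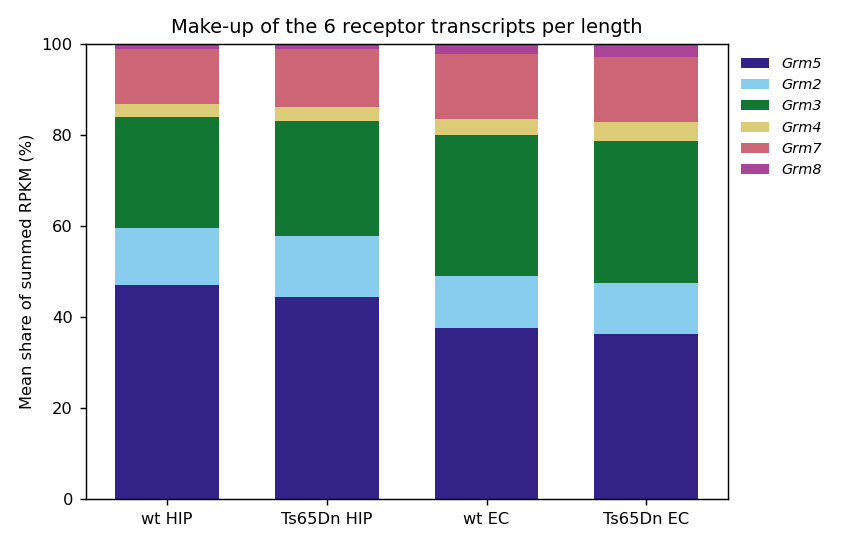
Mean share (%, vertical axis) of each gene in the summed RPKM of the 6 mGlu receptor genes, for the 4 groups of 6 libraries each, stacked from Grm5 at the bottom to Grm8 at the top. Grm5 is the largest part in each group and is larger in the HIP (46.9% in wt) than in the EC (37.5% in wt), while Grm8 is the thin top part, at 1.01% in the wt HIP and 2.25% in the wt EC.

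The regions were compared within mice, with a term for each mouse in edgeR's quasi-likelihood test. A gene is called here when its Benjamini-Hochberg adjusted p over all genes tested is under 0.05. In wt mice 5 of the 6 receptor genes were called between HIP and EC, beside 61.3% of all 17196 genes tested, and in Ts65Dn mice also 5 of 6, beside 52.3% of 17314 genes. Grm5 was higher in the HIP (as 31% of all genes in wt and 26.6% in Ts65Dn mice), Grm3, Grm4, Grm7 and Grm8 were lower (30.3% and 25.7%), and Grm2 was not called in either genotype. When a fold change beyond 1.5 was required, Grm8 was the 1 receptor gene called in each genotype, beside 14% of all genes in wt and 11.3% in Ts65Dn mice. In these pieces of tissue, fewer cells of a type and less RNA per cell cannot be told apart.

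Grm5, the group I receptor tied to Homer scaffolds, ranged from 363 to 401 CPM (median 385) in the wt HIP and from 302 to 388 CPM (median 322) in the wt EC. In Ts65Dn mice it ranged from 311 to 394 CPM (median 347) in the HIP and from 238 to 329 CPM (median 313) in the EC. The groups overlapped in both genotypes, yet within each of the 12 mice the HIP value was above the EC value, by a ratio of 1.0 to 1.31. The log2 fold change of HIP over EC was 0.21 (SE 0.05, edgeR adjusted p = 0.00229) in wt and 0.23 (SE 0.05, edgeR adjusted p = 0.00469) in Ts65Dn mice, or 0.20 for Grm5 without the mouse labelled Ts65Dn replicate 3. These are small differences, and 59.6% of all genes tested in wt mice had a larger log2 fold change in absolute size.

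Of the group II genes, Grm3, which encodes the receptor shared by neurons and astrocytes, was lower in the HIP. It ranged from 54.6 to 67.3 CPM (median 58.4) in the wt HIP and from 75.1 to 90.6 CPM (median 80.7) in the wt EC. In Ts65Dn mice the ranges were 49.9 to 67.3 CPM (median 62.1) in the HIP and 68.7 to 85.7 CPM (median 74.3) in the EC. All HIP libraries lay below all EC libraries of the same genotype. HIP over EC, Grm3 had a log2 fold change of -0.45 (SE 0.05, edgeR adjusted p = 1.37e-05) in wt and -0.37 (SE 0.05, edgeR adjusted p = 0.000291) in Ts65Dn mice, or -0.36 without the mouse labelled replicate 3.

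Grm2, the group II receptor of presynaptic terminals, did not follow Grm3. In wt mice it ranged from 40.2 to 64.9 CPM (median 46.9) in the HIP and from 45.4 to 52.2 CPM (median 48.1) in the EC, and 3 of the 6 mice had the higher value in the HIP. The log2 fold change was 0.02 (SE 0.10, 95% interval -0.19 to 0.24, edgeR adjusted p = 0.851). In Ts65Dn mice the HIP ranged from 43.3 to 53.5 CPM (median 50.9) and the EC from 34.7 to 62.5 CPM (median 41.2), with the HIP higher in 5 of 6 mice. The log2 fold change was 0.23 (SE 0.09, edgeR adjusted p = 0.0522), short of the threshold. The 1 mouse with the lower HIP value was the one labelled Ts65Dn replicate 3. Without it, all 5 HIP libraries lay above all 5 EC libraries, the log2 fold change was 0.32 (edgeR adjusted p = 0.00297) and all 6 receptor genes were called, beside 47.9% of all genes. The RPKM ratio of Grm2 to Grm3 had medians of 0.472 and 0.519 in the wt and Ts65Dn HIP and 0.374 and 0.345 in the EC. Every wt EC value of that ratio was below every wt HIP value.

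Of the group III genes, Grm8 had the largest difference between the regions. It ranged from 6.08 to 9.93 CPM (median 8.34) in the wt HIP and from 15.7 to 24 CPM (median 18.9) in the wt EC, on 152 to 333 and 473 to 712 counts. In Ts65Dn mice the ranges were 5.62 to 11.1 CPM (median 8.21) and 18.9 to 23.1 CPM (median 22.5). No HIP library reached the lowest EC library of its genotype. The HIP level was 0.415 times the EC level in wt mice (log2 fold change -1.27, SE 0.09, edgeR adjusted p = 1.36e-06) and 0.374 times in Ts65Dn mice (log2 fold change -1.42, SE 0.13, edgeR adjusted p = 1.01e-05). A larger absolute log2 fold change was seen for 7.37% of all genes tested in wt and 5.37% in Ts65Dn mice. Within mice the ratio ran from 0.310 to 0.502 in wt and from 0.243 to 0.584 in Ts65Dn, where the highest value was that of replicate 3. Without that mouse the Ts65Dn log2 fold change of Grm8 was -1.55 (edgeR adjusted p = 3.2e-06).

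Grm7, which encodes the low-affinity receptor of the active zone, ranged from 53.0 to 63.6 CPM (median 57.3) in the wt HIP and from 66.9 to 80.1 CPM (median 72.2) in the wt EC. In Ts65Dn mice it ranged from 54.5 to 64.4 CPM (median 57.6) in the HIP and from 65.6 to 71.5 CPM (median 68.0) in the EC. As for Grm3 and Grm8, the regions did not overlap in either genotype. How many of all genes were free of overlap was not counted, and 61.3% (wt) and 52.3% (Ts65Dn) of all genes were called between the regions. The log2 fold change of Grm7 was -0.33 (SE 0.04, edgeR adjusted p = 3.19e-05) in wt and -0.24 (SE 0.05, edgeR adjusted p = 0.00171) in Ts65Dn mice, and was also -0.24 without the mouse labelled replicate 3. The ratio of Grm8 to Grm7 RPKM had a median of 0.0890 in the wt HIP and 0.159 in the wt EC, with no overlap, so these group III genes differed between the regions by unequal factors.

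Grm4, a presynaptic receptor best known from cerebellar parallel fibres, spread widely between mice in the wt HIP, with a mean of 12.8 CPM ± 3.47 (SD, n = 6). It ranged from 8.90 to 16.7 CPM (median 12.6) in the wt HIP and from 15.8 to 22.2 CPM (median 17.6) in the wt EC, on 235 to 487 and 432 to 637 counts. In Ts65Dn mice it ranged from 10.3 to 19.9 CPM (median 13.9) in the HIP and from 14.5 to 22.8 CPM (median 20.3) in the EC. The groups overlapped, and the HIP was lower in 6 of 6 wt and 4 of 6 Ts65Dn mice. Summed cortical layer markers in the wt HIP ran from 141 CPM in replicate 4, where Grm4 was also lowest, to 241 CPM in replicate 5, with 14.1 CPM of Grm4. From replicate 4 to replicate 5, Grm2 (42.7 and 51.0 CPM), Grm3 (58.6 and 67.3 CPM) and Grm8 (6.19 and 9.23 CPM) also rose, while Grm5 and Grm7 did not. The 3 thalamic markers summed to 91.7 CPM in replicate 4 and to at most 47.4 CPM in the other wt HIP libraries. The part of the cortical layer and thalamic markers in the spread of Grm4 was not tested. HIP over EC, Grm4 had a log2 fold change of -0.52 (SE 0.12, edgeR adjusted p = 0.00295) in wt and -0.49 (SE 0.14, edgeR adjusted p = 0.0162) in Ts65Dn mice, or -0.60 without the mouse labelled replicate 3. The Ts65Dn value was no longer called for Grm4 without replicate 5 (edgeR adjusted p = 0.0506), when 4 receptor genes were called beside 43.7% of all genes.

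**Figure D2:**
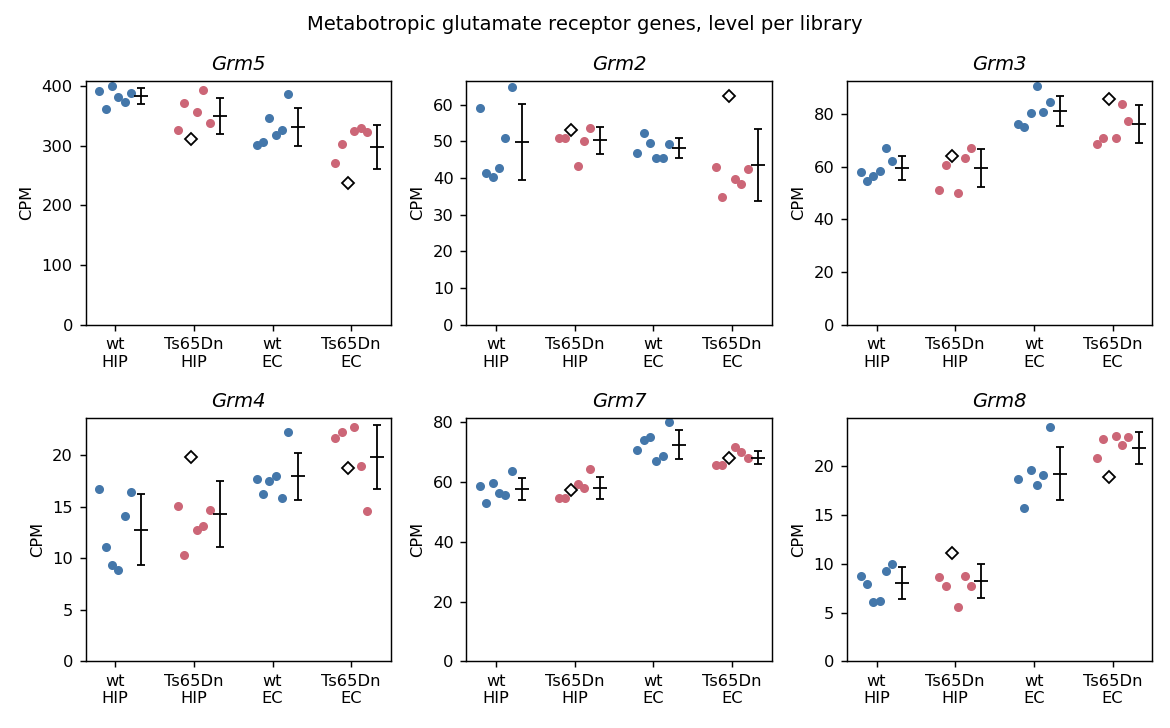
Level in CPM (vertical axes, from 0) of each receptor gene in the 24 libraries, by genotype and region. Points are libraries, open diamonds are those labelled Ts65Dn replicate 3, and the bar beside each group is its mean ± SD (n = 6). For Grm3, Grm7 and Grm8 the EC points lie above all HIP points of the same genotype, and in the Ts65Dn EC the diamond of Grm2 stands at 62.5 CPM above the other 5 libraries.

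**Figure D3:**
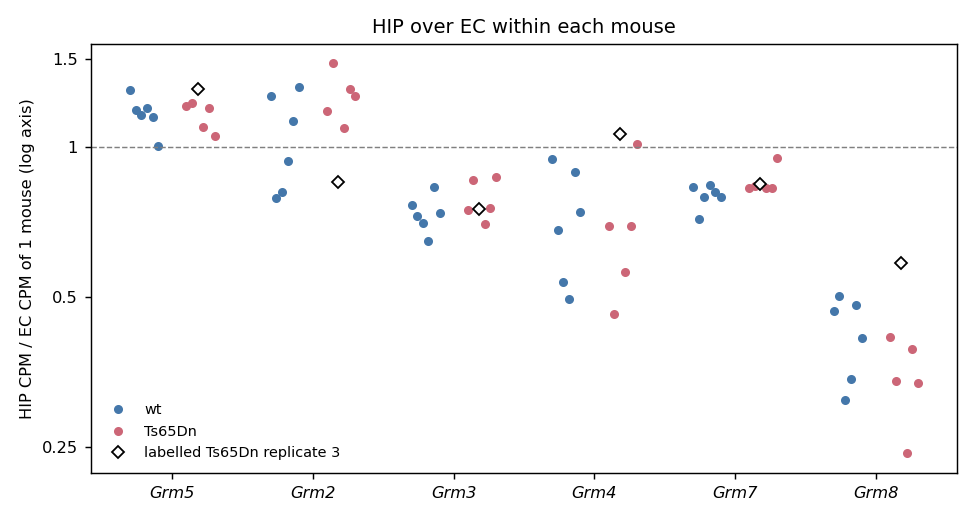
Ratio of HIP CPM to EC CPM within each of the 12 mice (vertical axis, log scale), by gene and genotype, with 1 point per mouse and the mouse labelled Ts65Dn replicate 3 as an open diamond. Grm5 lies above 1 and Grm3, Grm7 and Grm8 lie below 1 in all 12 mice, whereas Grm2 lies on both sides in both genotypes.

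Cell type markers moved with region. The 5 oligodendrocyte markers summed to 6316 to 9926 CPM in the HIP and 1261 to 2658 CPM in the EC, and the 5 pan-neuronal markers to 5489 to 6855 and 6795 to 8756 CPM. Of the pan-neuronal markers, Rbfox3 did not follow the sum in wt mice (HIP and EC medians 230 and 226 CPM, with 230 and 251 CPM in Ts65Dn mice). The 6 astrocyte markers summed to 1634 to 2037 CPM in the HIP and 1252 to 1889 CPM in the EC. Gfap carried most of that difference (wt medians 374 and 89.3 CPM), with Aqp4 and Gja1 also higher by median in the HIP, while Aldh1l1 (48.9 and 73.2 CPM), Slc1a3 (792 and 887 CPM) and S100b (138 and 144 CPM) had the higher wt median in the EC. The 5 choroid plexus markers summed to 51.0 to 5076 CPM in the HIP libraries and 8.58 to 49.5 CPM in the EC. The 4 cerebellar markers, of interest for Grm4, summed to 2.71 to 7.03 CPM in the HIP and 11.7 to 21.3 CPM in the EC, a difference carried by Car8 (wt medians 4.14 and 18.2 CPM). The defining markers Gabra6 and Pcp2 were at or near 0 in both regions (at most 0.208 CPM in any library), with Gabra6 at 0 in every wt EC library, and Cbln3 was at wt medians of 0.453 and 0.350 CPM. The part of these markers, and of the cortical layer markers in the HIP libraries, in the region differences and the spread of the receptor genes was not tested.

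No genotype by region interaction was called for any of the 6 genes, nor for any of the 18109 genes tested (0% by edgeR and 0 by DESeq2, with 742 genes at an unadjusted edgeR p under 0.05). The difference of the HIP-over-EC log2 fold changes, Ts65Dn minus wt, was 0.20 (SE 0.15, 95% interval -0.10 to 0.51) for Grm2 and -0.15 (SE 0.18, 95% interval -0.52 to 0.23) for Grm8. For the other 4 genes it lay between 0.02 and 0.09. Without the mouse labelled Ts65Dn replicate 3 it was -0.28 for Grm8 and -0.08 to 0.10 for those 4 genes (lowest for Grm4). For Grm2 the difference was 0.30 (95% interval 0.01 to 0.58) without the mouse labelled Ts65Dn replicate 3, with an unadjusted p of 0.0417 and an edgeR adjusted p of 0.762.

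Between genotypes, 0 of the 6 receptor genes were called in the HIP, beside 1.04% of 17355 genes, and 0 of 6 in the EC, beside 2.5% of 17049 genes. At an unadjusted edgeR p under 0.05, 1 of the 6 genes passed in the HIP (Grm5) and 0 in the EC, against 2572 and 3235 of all genes. DESeq2 called 0 of 6 in each region. In the HIP, Grm5 was lower in Ts65Dn than in wt mice by a log2 fold change of -0.14 (SE 0.06, 95% interval -0.25 to -0.02, edgeR adjusted p = 0.274). In the HIP 4 of the 6 Ts65Dn libraries had Grm5 levels below all wt libraries, and the lowest, at 311 CPM, was the one labelled replicate 3. Without that library the Grm5 log2 fold change was -0.11 (edgeR adjusted p = 0.308).

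For the other receptor genes in the HIP, the Ts65Dn and wt ranges overlapped with differences near 0 or wide intervals. The log2 fold change was 0.01 (95% interval -0.23 to 0.25) for Grm2, -0.01 (-0.17 to 0.16) for Grm3 and 0.00 (-0.11 to 0.12) for Grm7. It was 0.16 (-0.23 to 0.55) for Grm4 and 0.04 (-0.30 to 0.38) for Grm8, the genes with the fewest counts. Without the library labelled Ts65Dn replicate 3 the values were 0.043 for Grm4 and -0.063 for Grm8, and between -0.029 and 0.0057 for Grm2, Grm3 and Grm7. No interval reached a 1.5-fold change. On simulated counts for this comparison edgeR called 92.5% of genes changed 1.5-fold, all drawn from genes above the median level. The change was put into every library labelled Ts65Dn, whereas replicate 3 had triplicated genes at 1.01 times the wt mean. The share called for a change absent from that library was not simulated. Triplicated Kcnj6, at mean levels of 47.9 CPM in wt and 69.6 CPM in Ts65Dn mice, was not called with all HIP libraries. Grm4 and Grm8 had SE of 0.18 and 0.16, against a median of 0.096 over all genes. Smaller changes, changes absent from replicate 3, and for Grm4 and Grm8 also 1.5-fold ones, could go uncalled.

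In the EC, Grm5 had a log2 fold change of -0.16 (SE 0.09, edgeR adjusted p = 0.33), with the lowest level again in the library labelled Ts65Dn replicate 3, at 238 CPM. Grm3 had -0.10 (edgeR adjusted p = 0.440) and Grm7 had -0.10 (edgeR adjusted p = 0.303), and all 6 Ts65Dn libraries lay below the wt median of Grm7. Grm4 had 0.14 (edgeR adjusted p = 0.538) and Grm8 had 0.18 (edgeR adjusted p = 0.306), and 5 of 6 Ts65Dn libraries lay above the wt median of each. All of these ranges overlapped between the genotypes. Without the library labelled Ts65Dn replicate 3 the EC value of Grm5 was -0.10 (edgeR adjusted p = 0.480), and those of Grm3, Grm7, Grm4 and Grm8 were -0.13, -0.09, 0.16 and 0.21, none of them called.

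Grm2 in the EC was the 1 receptor gene whose genotype call changed when a mouse was left out. The 6 wt libraries ranged from 45.4 to 52.2 CPM (median 48.1). The library labelled Ts65Dn replicate 3 was at 62.5 CPM, above all wt libraries, and the other 5 Ts65Dn libraries ranged from 34.7 to 43.1 CPM, below all wt libraries. How many of all genes were separated in this way between the genotypes was not counted. With all 12 libraries the log2 fold change of Grm2 was -0.16 (SE 0.11, 95% interval -0.39 to 0.07, edgeR adjusted p = 0.470). Without that library it was -0.29 (SE 0.06, 95% interval -0.42 to -0.15, edgeR adjusted p = 0.0266), which made 1 of 6 receptor genes called, beside 2.79% of all genes. DESeq2 without that library gave -0.29 (adjusted p = 0.00146) for Grm2. In edgeR with trends of GC content and length removed and that library left out, the Grm2 value was -0.37 (adjusted p = 0.00629). With the replicate number as a block and that library left out, Grm2 was at -0.28 and not called (edgeR adjusted p = 0.147), though these numbers do not pair mice across the genotypes. The dosage of the triplicated genes that sets this library apart does not use Grm2. This library also held the most extreme Grm2 level of its group, however, so leaving it out takes that value out of the test. No fit with this library counted as wt was run. The same EC library had the highest summed cortical layer markers of the Ts65Dn EC (741 CPM against at most 689 CPM) and the highest blood markers of that group (300 CPM against at most 172 CPM, with 139 to 545 CPM in the wt EC), and their part in the Grm2 level was not tested. In the HIP, where Grm2 was at 53.1 CPM in this mouse, the 5 other Ts65Dn libraries and the wt libraries overlapped.

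**Figure D4:**
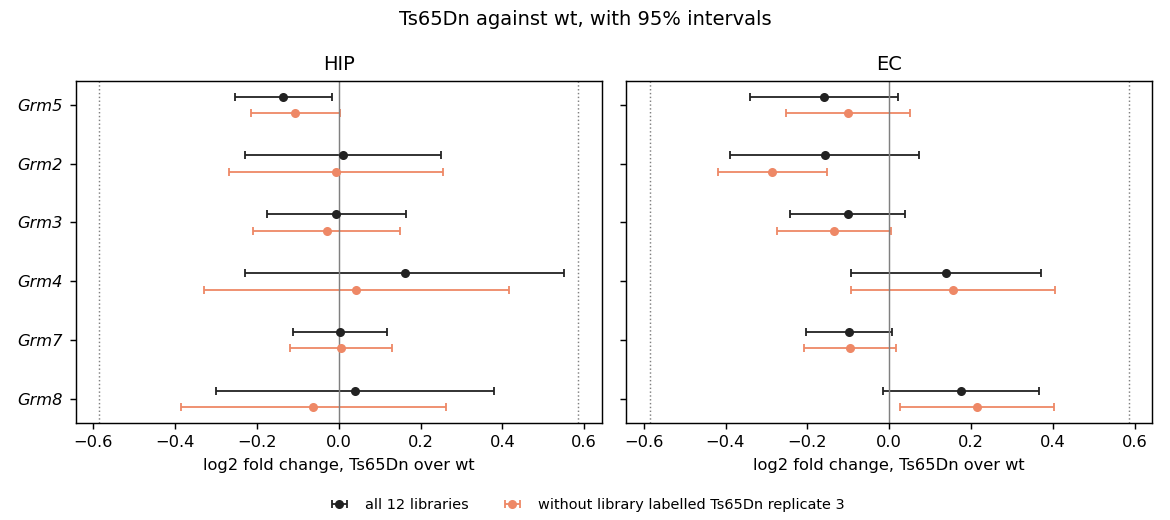
Log2 fold change of Ts65Dn over wt (horizontal axes) with its 95% interval for each receptor gene in the HIP (left) and EC (right), with all 12 libraries in black and without the library labelled Ts65Dn replicate 3 in orange. Solid lines mark no change and dotted lines a 1.5-fold change. The Grm2 value in the EC moves from -0.16 to -0.29 without that library, and no interval reaches a dotted line.

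The partners of these receptors were read from 7 lists with 60 genes in all, each of which passed the filter on low counts. Between genotypes in the HIP, 0 of 60 were called, beside 1.04% of all genes (0.542% higher and 0.501% lower), with 10 at an unadjusted p under 0.05 (14.8% of all genes). DESeq2 called 3, beside 1.7% of the 34569 genes with a count in the HIP, a set that includes genes below the filter. Without the mouse labelled Ts65Dn replicate 3, edgeR called Kcnj6 (0.65, edgeR adjusted p = 0.00197) and Adcy5 (0.23, edgeR adjusted p = 0.0214) as higher and Rgs2 (-0.27, edgeR adjusted p = 0.0279) as lower in the HIP, as log2 fold changes, beside 1.82% of all genes. Kcnj6, a subunit of the potassium channels opened by Gi/o-coupled receptors, lies in the triplicated Mmu16 segment. Adcy5 is an adenylyl cyclase that Gi-coupled receptors inhibit, and Rgs2 shortens Gq signalling.

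In the EC 6 of the 60 partner genes (10%) were called, beside 2.5% of all genes, 5 higher (1.15% of all genes) and 1 lower (1.35%) in Ts65Dn mice. Kcnj6 had a log2 fold change of 0.55 (SE 0.11, edgeR adjusted p = 0.0221), ranging from 28.8 to 49.0 CPM in Ts65Dn and from 26.2 to 33.2 CPM in wt mice. Adcy5 had 0.25 (edgeR adjusted p = 0.0482). Rimkla, a synthetase of N-acetylaspartylglutamate (NAAG), the peptide that activates the Grm3 receptor, had 0.33 (edgeR adjusted p = 0.0361). Elfn1, an adhesion protein that recruits group III receptors across the synapse, had 0.26 (edgeR adjusted p = 0.0412), and Gnai1, a Gi alpha subunit, had -0.25 (edgeR adjusted p = 0.0483). The number of these calls depended on single mice: leaving out 1 mouse at a time gave between 0 calls (without Ts65Dn replicate 1 or 4, beside 0.524% and 0.893% of all genes) and 7 (without wt replicate 2, beside 3.12%). Kcnj6 was called in 10 of the 12 fits, and without the mouse labelled Ts65Dn replicate 3 its log2 fold change was 0.65 (edgeR adjusted p = 6.62e-05). Rimkla was called in 4 of the 12 fits, and Adcy5, Elfn1 and Gnai1 in 2 each. Of the 6, 4 genes (among them Adcy5, Kcnj6 and Elfn1) were called without the mouse labelled Ts65Dn replicate 3, when Slc1a2, a glutamate transporter of astrocytes, and Rgs4 were also called, both lower. Without that mouse the log2 fold changes were 0.28 for Adcy5, 0.28 for Elfn1, 0.31 for Rimkla and -0.22 for Gnai1. Neither Rimkla (edgeR adjusted p = 0.055) nor Gnai1 (edgeR adjusted p = 0.0671) was called there. Over the 60 genes the median log2 fold change between genotypes was 0.02 (HIP) and 0.04 (EC), against 0.00 for all genes in both regions.

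Between HIP and EC, 50 of the 60 partner genes were called in wt mice, 19 higher and 31 lower in the HIP (83.3%, beside 61.3% of all genes), and 49 in Ts65Dn mice, 19 higher and 30 lower (81.7%, beside 52.3%). The median log2 fold change over the 60 genes was -0.14 in wt and -0.17 in Ts65Dn mice, against 0.00 for all genes in both. With a 1.5-fold change required, 10 were called in wt and 7 in Ts65Dn mice, beside 14% and 11.3% of all genes. Of the 21 scaffolds and regulators, 7 were higher and 11 lower in the HIP in each genotype. Homer3, a scaffold that binds Grm5, ranged from 30.7 to 41.0 CPM in the wt HIP and from 2.29 to 4.03 CPM in the wt EC, a log2 fold change of 3.58 (SE 0.10, edgeR adjusted p = 2.82e-09), and Rgs4, which shortens Gq and Gi signalling, had -1.80 (SE 0.12, edgeR adjusted p = 5.41e-07). In Ts65Dn mice these values were 3.28 for Homer3 and -1.39 for Rgs4, and without the mouse labelled replicate 3 they were 3.38 and -1.34.

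Of the 9 genes of the Gq and phospholipase C branch, which serve Grm5, 4 were higher and 4 lower in the HIP in each genotype. In wt mice Prkca, protein kinase C alpha, had a log2 fold change of 1.0 and Plcb4, a phospholipase C, of -1.05. All 8 genes of the Gi/o and adenylyl cyclase branch were called in both genotypes, 2 higher and 6 lower, with Adcy8 at -0.82 and Adcy5 at -0.51 in wt mice. Of the 5 effector channels 2 were higher and 2 lower, with Kcnj6 at 0.70 and Kcnj9 at -0.53 in wt mice. Of the 8 genes of glutamate transport and synthesis, 2 were higher and 5 lower in wt mice and 2 higher and 4 lower in Ts65Dn mice. Slc17a8, a vesicular glutamate transporter of scattered neuron types, had 1.28, and Slc17a7, the main vesicular transporter of cortical excitatory neurons, had -0.56 in wt mice. Of the 4 genes of NAAG synthesis and breakdown, 2 were higher and 1 lower, with Rimkla at 0.77 and Folh1, the NAAG-cleaving carboxypeptidase, at 0.48 in wt mice. Of the 5 genes of mGlu-dependent plasticity, 2 were lower and 3 not called, with Ptpn5, a striatum-enriched tyrosine phosphatase, at -0.47 and Map1b, a microtubule-associated protein, at -0.13 in wt mice. Map1b was not called in wt mice without replicate 1, 5 or 6, nor in Ts65Dn mice without replicate 1, 4 or 6.

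**Figure D5:**
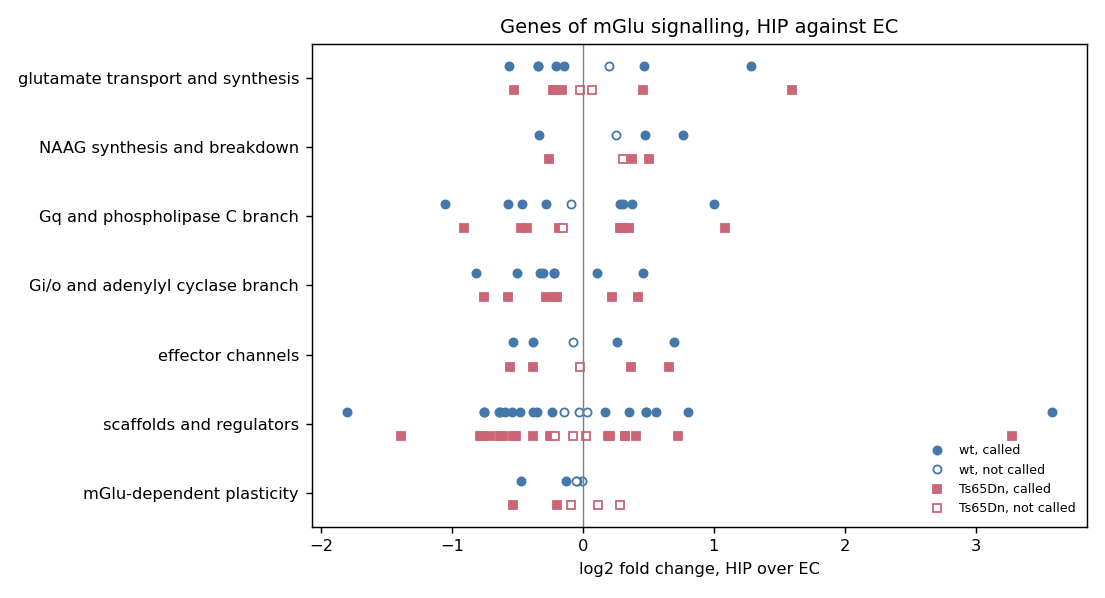
Log2 fold change of HIP over EC (horizontal axis) for the 60 genes of mGlu signalling, 1 row per list, with wt mice as circles and Ts65Dn mice as squares, filled where called. Homer3 is the pair of points beyond 3 in the row of scaffolds and regulators, and Rgs4 is the lowest pair, at -1.80 in wt and -1.39 in Ts65Dn mice.

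The genes whose levels moved most like each receptor gene within the groups were found by Pearson's r of log2 CPM after the mean of each genotype and region group was subtracted, over 24 libraries from 12 mice and 14811 protein-coding genes. These libraries share mice, depth and scaling, so the values are a description. For Grm5 the top genes were Nexmif (r = 0.915), Cacna2d1 (r = 0.912), an auxiliary subunit of calcium channels, and Lrrc7 (r = 0.895), a postsynaptic scaffold. For Grm2 they were Apc2 (r = 0.767), Aco1 (r = 0.756) and Unc119b (r = 0.742), and for Grm3 Rnf144a (r = 0.814), Msl1 (r = 0.812) and Zfp648 (r = 0.796), the last at a mean of 0.871 CPM. For Grm4 they were Zdhhc22 (r = 0.866), Ap1m2 (r = 0.829) and Atp8a2 (r = 0.789), and for Grm7 they included Dcaf12 (r = 0.783) and Cmtr1 (r = 0.762). For Grm8, which had few counts, they were Itgal (r = 0.783), Rai14 (r = 0.781) and Grb7 (r = 0.768), with Spearman's rho of 0.549, 0.701 and 0.576. Grm5 thus had closer neighbours than any other receptor gene by this measure. It also had the most counts over the 24 libraries, 241373 against 10130 to 48889 for the others, and the part of depth in this was not tested.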

How the data were processed

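RNA-Seq of 24 libraries, the HIP and EC of 6 Ts65Dn and 6 wt mice, was analysed, with the genotype, replicate number and animal of each library taken from the sample labels. The authors aligned 50-base single-end reads to GRCm38 (mm10 in the submitters' processing notes, with bcl2fastq 2.17.1.14 and DESeq2) with Hisat2 and deposited raw counts per gene from HTSeq-count, without normalization. The methods name a ribosomal RNA removal kit and the labels an mRNA kit, so the enrichment step is unclear. Of 55385 genes, 36766 had a count, 0 rows named no gene, and 99.6% were matched to GENCODE vM21. Other deposited tables give comparisons made by the authors, with signal values, log2 fold changes, p-values, ratios and scores, and were not used.

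Counts were tested with edgeR 4.0.16 (R 4.3.3): quasi-likelihood F-test, filterByExpr, TMM and Benjamini-Hochberg adjustment over all genes tested, threshold 0.05. Genotypes were compared within each region. Regions and the interaction had a term for each mouse, since both regions come from the same animal (deviations of the regions of a mouse correlated at 0.178 to 0.426, best with their own number in 6 of 6 mice of each genotype). Standard errors are the log2 fold change over the square root of F. Results were recomputed with DESeq2 1.42.0, with edgeR on DESeq2 size factors, without the filter, with at least 10 counts in every library, at an adjusted p under 0.1, with a minimum fold of 1.5, with a replicate block or none, with trends of gene GC content and length removed, and without each mouse in turn. CPM used TMM factors over 24 libraries, log2 CPM a prior count of 2, and RPKM the union of annotated exons. The totals of 23128589 to 40476492 counts limit the precision of low genes. On simulated counts, 200 genes drawn from above the median level were changed 1.5-fold. For genotypes and the interaction the change was put into every HIP library labelled Ts65Dn, replicate 3 included. Of the 200 genes edgeR recovered 185 with 8 false calls for genotypes in the HIP, 197 with 16 for regions in wt mice and 178 with 11 for the interaction.

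The named genes were the 6 receptor genes in every comparison, every partner gene called between genotypes, the 2 genes of each list with the largest log2 fold change among those called in both region comparisons, and the 3 genes most correlated with each receptor gene. Rgs2, Slc1a2 and the results for Rgs4 between genotypes were named after their values were seen. Of the genes this rule names, 2 are not reported here. The members and lists were chosen with earlier results of these data known. The alternatives that combine DESeq2, the removal of GC content and length or the replicate block with the left-out library labelled Ts65Dn replicate 3 were chosen after seeing the data. That library kept its label and stayed in each main test.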

Additional observations from a re-analysis of the deposited data

Results flagged for a closer look

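In 24 groups of 6 libraries, 1 per receptor gene, genotype and region, the gap between the most extreme library and its neighbour was set against the range of the group (Dixon's ratio, taken past its 95% critical value for 6 samples), by which chance picks about 1 group in 20. Grm2 in the Ts65Dn EC had a ratio of 0.699: the library labelled replicate 3 was at 62.5 CPM and the next at 43.1 CPM. Grm2 in the Ts65Dn HIP had a ratio of 0.665, with replicate 4 at 43.3 CPM below the next at 50.1 CPM. Grm4 in the wt EC had a ratio of 0.668, with replicate 6 at 22.2 CPM above the next at 18.0 CPM.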

How the results depend on the processing

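Grm5, Grm3, Grm7 and Grm8 kept the direction and the call of their region differences in both genotypes under the alternatives run, except that with a required 1.5-fold change 1 of the 6 receptor genes (Grm8) was called in each genotype instead of 5. In Ts65Dn mice Grm2 was also called without a filter and with at least 10 counts in every library (0.22 and 0.24). Leaving out 1 mouse gave 5 receptor genes called in wt mice each time and 4 to 6 in Ts65Dn mice, 0 of 6 between genotypes in the HIP, 0 to 1 in the EC and 0 for the interaction. Without the library labelled Ts65Dn replicate 3, 1 receptor gene (Grm2) was called in the EC by DESeq2 and with GC content and length removed, and 0 with the replicate block (Grm2 -0.28, edgeR adjusted p = 0.147).

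Some values that were not called changed sign. In the HIP, Ts65Dn against wt, Grm2 was -0.064 with GC content and length removed and, without the library labelled Ts65Dn replicate 3, -0.0081 by DESeq2, -0.074 with GC content and length removed and -0.044 with the replicate block. Also without that library, Grm8 was -0.064 by DESeq2 and -0.13 with the replicate block, and Grm4 was -0.066 with GC content and length removed and -0.0079 with the replicate block. In the EC, Grm4 was -0.013 with GC content and length removed. Leaving out 1 mouse in the HIP gave -0.043 to 0.10 for Grm2, -0.043 to 0.041 for Grm3, -0.028 to 0.033 for Grm7, -0.063 to 0.13 for Grm8 and 0.043 to 0.25 for Grm4. It gave -0.051 to 0.10 for Grm2 between regions in wt mice, and in the interaction -0.079 to 0.16 for Grm4 and -0.023 to 0.051 for Grm5. The cause was not tested.

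The replicate numbers do not pair mice across genotypes (same-number correlations -0.198 to 0.153 for HIP and -0.0812 to 0.166 for EC libraries, best with the own number for 1 of 6 in each). With the replicate block, 0 receptor genes were called between genotypes, and 29 instead of 181 of all genes in the HIP and 36 instead of 426 in the EC. Without a mouse term between regions, no receptor gene changed its call, and 9497 instead of 10541 genes were called in wt and 8350 instead of 9055 in Ts65Dn mice. The partner genes called in the EC numbered 6, but 0 with the replicate block, 1 with GC content and length removed, 2 without a filter and 10 by DESeq2. Of all genes, 59 (HIP) and 130 (EC) were called with GC content and length removed, 589 and 1098 by DESeq2, and 389 and 1025 at an adjusted p under 0.1. Leaving out 1 mouse gave 54 to 318 and 90 to 685, and no filter 275 in the EC and 37 in the interaction. Grm8 and Grm4, at 130 to 792 counts per library, are the receptor genes whose small differences the depth limits most.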

Other observations

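Within the groups, the receptor genes moved together only loosely. Over the 15 pairs and 24 libraries from 12 mice, which share depth and scaling, Pearson's r of the deviations of log2 CPM from the group means was highest for Grm4 with Grm8 (r = 0.703, rho = 0.677), both group III genes with few counts, and lowest for Grm2 with Grm5 (r = -0.38, rho = -0.29). The group II genes Grm2 and Grm3 had r = 0.427, and Grm7 had r = 0.136 with Grm8 and r = 0.313 with Grm4. These values describe the libraries and were not tested.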
